A study of Mus musculus with 8 samples.

Results

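The RNA described here is the stretch of Ube3a-ATS, the antisense RNA of Ube3a, that lies opposite the 5′ part of the gene. It was read by the 777 minus-strand probes whose lower coordinate falls from 66483532 to 66526900 on mouse chromosome 7 (build mm9), out of 53834 distinct probes on the array. The stretch is 43.4 kb long. Its lower border is where the plus-strand signal over Ube3a begins in wild type, and its upper border is where the plus-strand signal changes in the deletion mice, so the members were selected on values measured on these same arrays. The single deletions against wild type helped to draw the upper border, and they are described here with no test. The double deletions carry the maternal deletion too, so their plus-strand signal, and the difference between strands that contains it, are also described with no test. The difference between strands in polyA against total RNA contains the wild-type plus-strand signal and is treated the same way. The minus-strand signal in the double deletions and in polyA RNA drew neither border and was tested.

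Ube3a encodes an E3 ubiquitin ligase that marks proteins for degradation, and its loss from the maternal chromosome in neurons causes Angelman syndrome. In neurons the paternal copy of Ube3a is silent. On the paternal chromosome a long minus-strand transcript starts at the Snrpn promoter, runs through the Snord snoRNA clusters and continues across Ube3a as Ube3a-ATS, while the maternal Snrpn promoter is methylated and inactive.

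RNA was taken from cerebral cortex at postnatal day 0, and all mice had the C57BL/6 background. Wild type (n = 2) was compared with a maternally inherited Snrpn-Ube3a deletion (del s-u/+, n = 1) and with that deletion inherited from the father (del +/s-u, n = 1). It was also compared with the double deletion (n = 2), which carries the maternal Snrpn-Ube3a deletion together with a deletion of the Snrpn promoter on the paternal chromosome. The remaining samples were polyA RNA of both wild types (n = 2). The stretch lies just outside the Snrpn-Ube3a deletion, as far as the signal shows its edge. Both double deletions therefore keep it on both chromosomes and differ from the maternal deletion by the paternal promoter deletion. The labels know promoter deletions 0.9 and 4.8, but for each sample the title gives one and the genotype the other. Replicates 1 and 2 are therefore numbered by their order alone, and which promoter deletion each carries is not decided here. Each promoter deletion therefore has 1 sample at most, and the allele and the noise between samples cannot be told apart. The labels do not say how many animals stand behind a sample or whether replicates are separate animals, so the spread behind each p-value may be technical. The files give no gene names for the probes, so markers of cell types were not analysed here.

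The sequences below show the promoters of Ube3a and of Snurf and Snrpn, as RefSeq gives them for build GRCm38.p6. Each runs from 250 bases before to 50 bases after the start of the gene. The first drives Ube3a on the plus strand (chr7:59228500-59228799, plus strand). The second, shared by Snurf and Snrpn (chr7:60005150-60005449, minus strand), is where the antisense transcript is known to start and is the kind of element removed from the paternal chromosome in the double deletions. These coordinates belong to another build than the probes and were not placed on mm9. Each is written 5′ to 3′ with its CG dinucleotides in capitals, since methylation of such sites distinguishes the parental copies of the Snrpn promoter.
Ube3a promoter: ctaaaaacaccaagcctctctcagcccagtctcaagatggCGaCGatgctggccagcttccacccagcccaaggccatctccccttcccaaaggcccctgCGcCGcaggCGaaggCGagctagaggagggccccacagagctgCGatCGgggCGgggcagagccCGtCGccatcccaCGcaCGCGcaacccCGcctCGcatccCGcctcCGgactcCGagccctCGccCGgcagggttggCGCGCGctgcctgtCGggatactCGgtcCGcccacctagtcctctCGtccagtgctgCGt
Snurf and Snrpn promoter: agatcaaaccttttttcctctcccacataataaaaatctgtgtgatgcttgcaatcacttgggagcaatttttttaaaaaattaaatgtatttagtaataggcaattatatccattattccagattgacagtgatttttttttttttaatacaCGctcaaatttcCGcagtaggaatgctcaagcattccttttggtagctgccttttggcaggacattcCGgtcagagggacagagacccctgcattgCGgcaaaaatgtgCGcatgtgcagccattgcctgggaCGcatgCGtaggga
The Ube3a promoter held 29 CG in 300 bases and was 69% G or C, and 12.9% of the 32851 promoters in the RefSeq table held at least as many. The Snurf and Snrpn promoter held 7 CG and was 40.3% G or C, and 52.1% of promoters held at least as many. CG reads the same on both strands. No probe sequence or mm9 sequence was used here.

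The 777 probes lie a median of 50 bp apart, with no gap over 110 bp. Of these, 394 are custom probes and 383 are catalogue probes of the array maker, 720 are 60 bases long and 57 are shorter. Each has a twin on the plus strand at the same position, and 4 share a position with another member. Red-channel intensity over local background had a median over the 777 probes of 189 and 201.5 on the wild types, 155 on the maternal deletion and 90 on the paternal deletion. It was 17 and 38 on the double deletions and 24 and 19 on the polyA arrays. On the wild types 772 of the 777 probes were well above background on both arrays, against 589 on both double deletions. No member was saturated. The same 777 positions on the plus strand read 209.5 and 191 in wild type and 476 and 603 in the double deletions.

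All 8 arrays share 1 slide and 1 scan, so neither could be fitted as a batch. The intensity that set the scale, the 75th percentile of the 3338 probes outside the tiled locus, lay 97 to 126 over background on the 6 total RNA arrays but only 13 and 12 over background on the polyA arrays. Values below are log2 signals after background correction, relative to that percentile of the same array, and the mean over the stretch is taken over the 772 members that passed the filter on dim probes. The filter kept a probe if some group had it well above background on each of its arrays. It kept 49275 probes in all for total RNA and 772 members of 43784 probes for the polyA comparison.

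The antisense RNA opposite the 5′ part of Ube3a was lower in the double deletions than in wild type along the whole stretch. The mean antisense signal was 0.85 and 0.93 in the wild types, and -0.60 and -0.30 in the double deletions. The maternal deletion read 0.57 and the paternal deletion 0.32. Both double deletions lay below every other sample, and on the outside-locus scale both single deletions lay between them and the wild types (on the scale of all probes the paternal deletion was 0.68 above wild type). The mean of the double deletions was -0.45 ± 0.21 (SD, n = 2) against 0.89 ± 0.06 (SD, n = 2) in wild type, a change of -1.34 (SE 0.13) or 2.53-fold lower, and limma gave an adjusted p of 0.0164 over the 86 windows of this length on both strands. Of those windows 4.65% were called lower. By size of change the stretch ranked only 14 from the lowest among the 43 minus-strand windows, whose median change was -0.24. Larger falls were therefore found elsewhere on this strand. Without wild type replicate 1 the adjusted p was 0.283, and without wild type replicate 2 it was 0.287. On the scale of all probes the change was -0.87 with an adjusted p of 0.0656, and with background subtracted it was -2.82 with 0.0245. Over all alternatives the adjusted p ran from 0.00109 to 0.287, and the change was negative in each. In these tissue samples, fewer cells that make the RNA and less RNA per cell cannot be told apart.

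The background correction adds an offset that makes changes of dim probes look smaller. With plain subtraction of the background, the median over the members was 3.77 lower on the log2 scale in double deletion replicate 1 and 2.55 lower in replicate 2, which in their mean is 8.93-fold. On the same scale the paternal deletion was lower by 1.09 and the maternal deletion by 0.55. Of the 777 probes, 88 were not well above background on either double deletion, and 100 more on 1 of them. For the 85 of those 88 that were tested, the fold is uncertain. They read 1.14-fold to 4.33-fold lower, with a median of 1.78-fold. These folds set the mean wild-type signal against the higher of the probe's own signal and the dimmest signal well above background on each double-deletion array. That dimmest signal is not a limit of detection, so the folds are not strict bounds. The 85 were picked for being dim in the double deletions and passed the filter through other groups. That all 85 folds exceed 1 follows largely from this choice, and nothing is read from it.

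**Figure D1:**
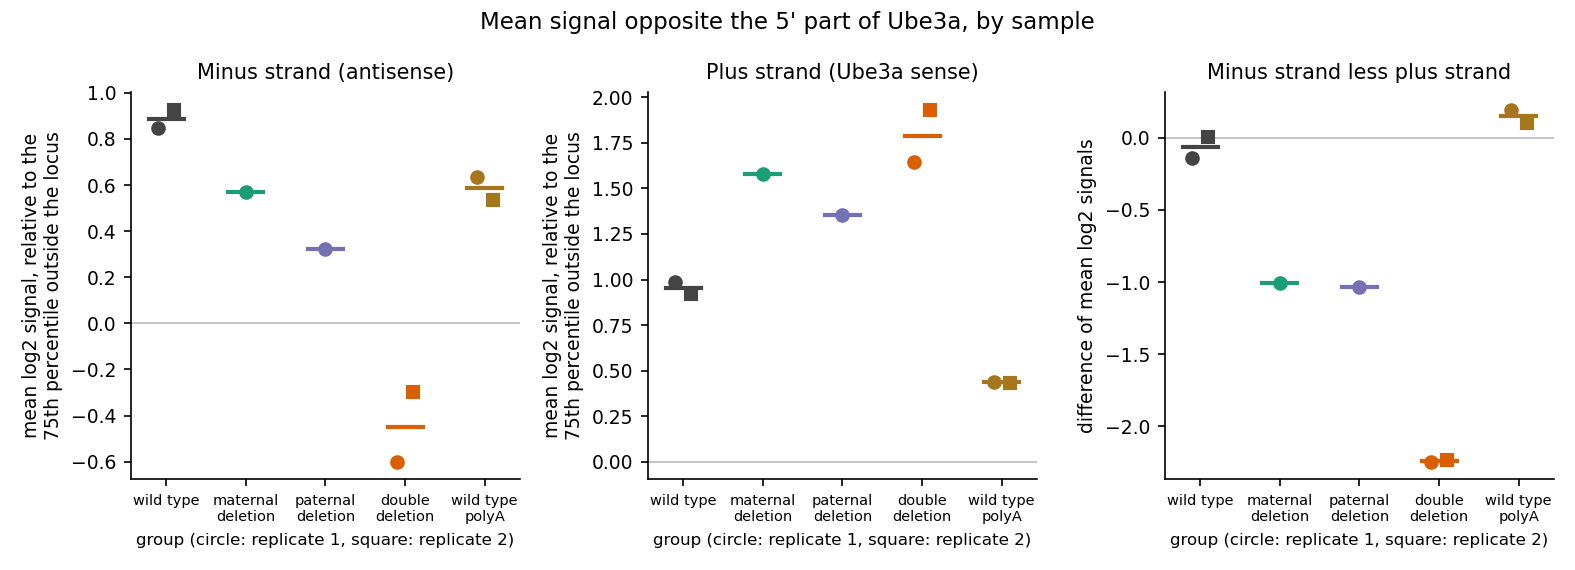
Mean log2 signal of each of the 8 samples over the stretch, for the minus strand (left), for the plus strand (middle) and as the difference of both on the same array (right). Points are samples, bars are group means, and signals in the left and middle panels are given on the outside-locus scale. On this scale the double deletions have the lowest antisense signal at -0.60 and -0.30, and the strand difference separates wild type, single deletions and double deletions into 3 levels.

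Each array also gives a comparison that no scaling factor can move, the antisense signal minus the sense signal of the same stretch. This difference was -0.14 and 0.01 in the wild types, -1.01 in the maternal deletion and -1.03 in the paternal deletion. It was -2.25 and -2.23 in the double deletions. The samples fell at 3 levels that did not overlap: wild type, both single deletions, and both double deletions. The mean of the double deletions was 2.17 below that of wild type on the log2 scale. Of 43 windows on the array 2.33% were called lower for this difference, and nothing is read from that here, since plus-strand signal chose the stretch. Both strands contribute to it: the plus strand of the stretch read 0.98 and 0.92 in wild type and 1.65 and 1.93 in the double deletions, a difference of 0.84. The maternal deletion read 1.58 and the paternal deletion 1.35 on the plus strand.

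The strand difference was spread over most probes. Compared on the same array, the change from wild type was lower on the minus strand than on its plus-strand twin for 749 of 772 members in double deletion replicate 1 and for 750 in replicate 2, or 97% and 97.2%. Over 23602 such pairs of the whole tiled locus the shares were 79.6% and 75.7%. In the maternal deletion it was lower for 730 members (94.6%, against 68.6% over the locus) and in the paternal deletion for 725 (93.9%, against 77.2%). The median difference between a member and its twin was -2.03 and -2.22 in the double deletions, against -0.85 in the maternal and -0.87 in the paternal deletion. The twins carry the plus-strand signal that chose the stretch. Shares above those of the locus are therefore expected from that choice, and nothing is read from them here.

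Set against the neighbouring windows of the same length, the stretch lay between a smaller and a larger change in the mean of the double deletions. The window below, past the 5′ end of Ube3a, changed by -0.47 in the double deletions (SE 0.06, limma adjusted p 0.0261), and the window above, opposite the 3′ part, by -1.45 (SE 0.25, adjusted p 0.0443). The stretch minus the window above changed by 0.27 in double deletion replicate 1 and by -0.03 in replicate 2. The samples thus differed in this order, and it is given with no test. In the 5 kb just below the lower border, the 1-kb medians ran from -1.51 to 0.17 in double deletion replicate 1 and from -1.27 to -0.99 in replicate 2. The window below is a mean over its whole length, so no break at the border is read from it. The difference between the stretch and the window below fell by 0.86 (SE 0.10, adjusted p 0.0316), where 5.95% of 84 such neighbour pairs were called lower. Its adjusted p was 0.137 without wild type replicate 1 and 0.158 without wild type replicate 2, within a range of 0.00414 to 0.158 over all alternatives, and the change was -1.71 with background subtracted.

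Among single probes, 482 of 772 members (62.4%) were called lower in the double deletions by limma (adjusted over 49275 probes), where the background over the array was 2.91%. None was called higher, against 6.01% of all probes, and 679 members had an unadjusted p under 0.05 in either direction. Left out of the fit in turn, wild type replicate 1 and wild type replicate 2 each left 0 members called, with 585 and 552 at an unadjusted p under 0.05. Quantile normalization left 0 called as well (667 unadjusted), and so did a filter to probes well above background on every array (500 unadjusted). The 482 include members that passed the filter on dim probes through other groups: of the 200 with a wild-type level under 0, 93 were called and 54 were well above background on both double deletions. Counted without a test, both double deletions lay below both wild types for 720 of 772 members (93.3%), where 38.8% of all probes did. The median change over the members was -1.46 in replicate 1 and -1.24 in replicate 2, against -0.13 and -0.03 over all probes.

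With the offset in the background correction, the 3 probes with the largest fall lay close together near the upper end. That offset makes changes of dim probes look smaller. With background subtracted, other members fell further. The lowest changes of any member were then -6.74 in replicate 1 and -6.04 in replicate 2, against -5.00 and -2.95 for the first probe named here. The probe RC_CUST_5725_PI425394930 (chr7:66520225-66520284) read 2.31 and 2.33 in wild type, 1.63 in the maternal deletion, 1.21 in the paternal deletion and -1.06 and -0.03 in the double deletions. It changed by -2.86 (SE 0.40, limma adjusted p 0.0437), and every sample kept it well above background. The catalogue probe RC_A_67_P14808315 (chr7:66520231-66520284), which overlaps it, changed by -2.83 (SE 0.33, adjusted p 0.0371). RC_CUST_5744_PI425394930 (chr7:66522315-66522374) changed by -2.84 (SE 0.42, adjusted p 0.046).

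The fall extended over every part of the stretch. Divided from the lower border into 8 pieces of 5 kb and a last one of 3.37 kb, all 9 pieces were called lower by limma (adjusted p 0.0244 to 0.0301 over 734 pieces), where 3.68% of all pieces were. The first 5 kb, next to the lower border, read 1.16 and 1.17 in wild type and 0.18 and 0.40 in the double deletions, a change of -0.88. The piece from 35 to 40 kb read 1.41 and 1.46 in wild type and -0.58 and -0.06 in the double deletions, a change of -1.76. The piece from 5 to 10 kb read 0.25 and 0.34 in wild type and -0.81 and -0.60 in the double deletions. The pieces from 10 to 35 kb changed by -1.08, -1.09, -1.55, -1.62 and -1.56, and the last piece by -1.69. Both double deletions lay below both wild types in all 9 pieces, and the share of all 734 pieces where they did was not counted.

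From 5 kb on, the smaller changes lay in the pieces with the lower wild-type levels, but from 20 kb on the change was not ordered by level. With the background subtracted, the pieces still differed, but the changes from 5 to 20 kb overlapped those from 20 kb on in both double deletions. The subtracted values are medians over probes, whereas the changes given above for the pieces are means. The pieces with the smaller changes, from 5 to 20 kb, had mean wild-type levels of 0.22 to 0.30, and those from 20 kb on had 0.87 to 1.69. After subtraction, the median change was -3.73 to -4.50 in replicate 1 and -2.50 to -3.00 in replicate 2 for the 8 pieces from 5 kb on. The first 5 kb stayed apart, at -2.33 and -1.49. Within it, the median change of the 16 probes from 1 to 2 kb was -0.25 and -0.15 in the double deletions, at a wild-type level of 0.78. The 21 probes of the next 1 kb changed by -1.58 and -1.25 at a wild-type level of 0.23.

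**Figure D2:**
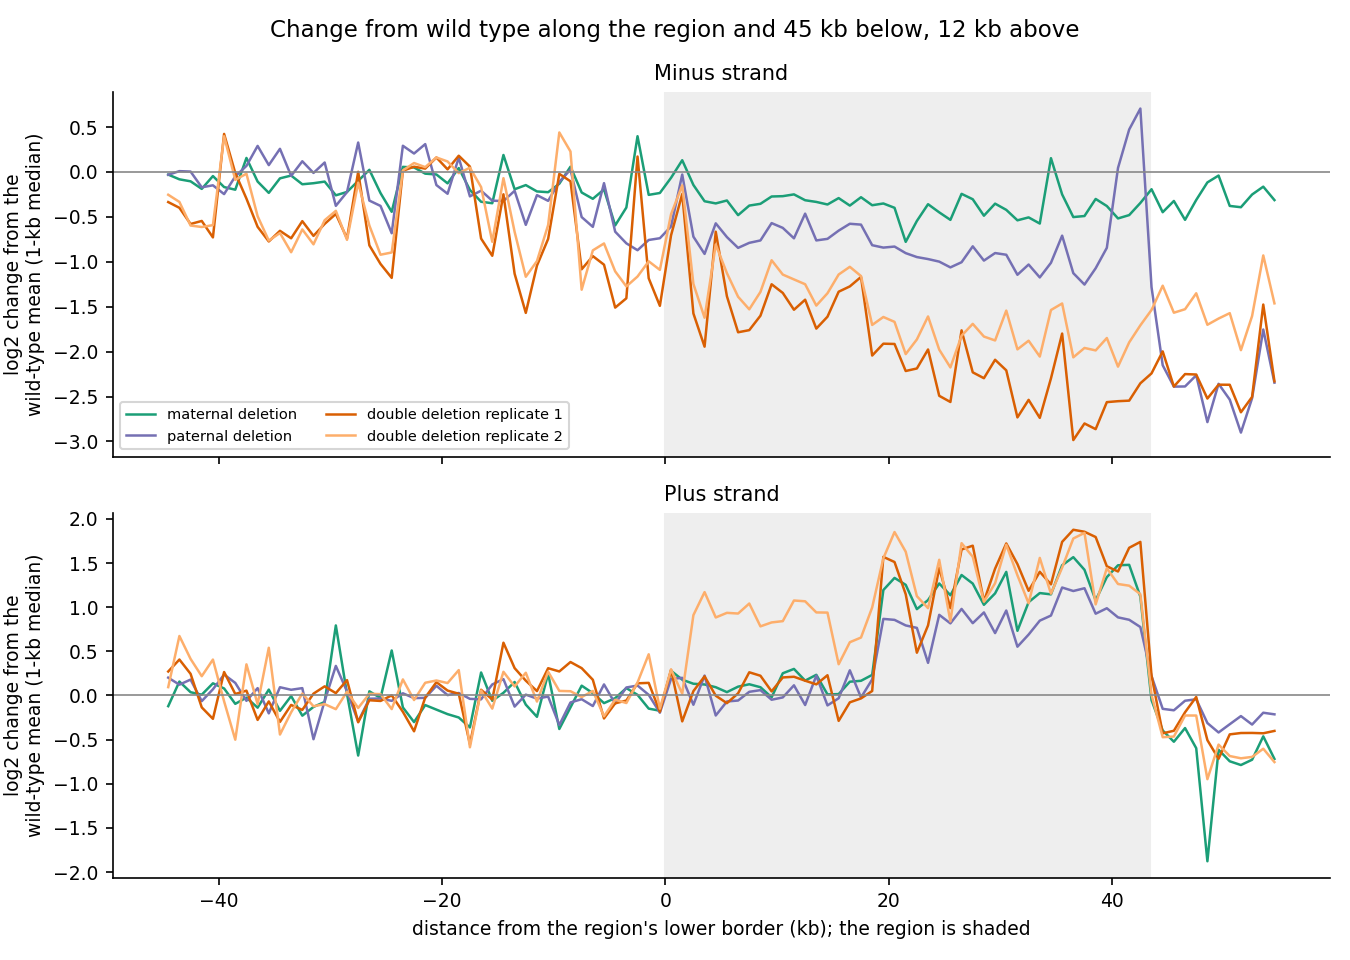
Median log2 change from the wild-type mean in pieces of 1 kb, against the distance from the lower border of the stretch in kb, for the minus strand (top) and the plus strand (bottom) of the 4 deletion samples. The stretch is shaded. On the outside-locus scale the antisense signal of both double deletions is below 0 in all 43 pieces and the paternal deletion turns above 0 near the upper border, and the plus strand of all 4 samples steps up at 19 kb.

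Neither strand of the stretch changed evenly. From 19 kb to the upper border, a point chosen after the profile was seen, the median change of 423 plus-strand probes was 1.12 in the maternal deletion, 0.76 in the paternal deletion and 1.28 in double deletion replicate 1, with replicate 2 close to it. All 4 samples were above the wild-type mean for 399 of these probes (94.3%). Below 19 kb the medians of 352 plus-strand probes were 0.10 in the maternal deletion, 0.01 in the paternal deletion, 0.05 in double deletion replicate 1 and 0.74 in replicate 2. The double deletions read apart on the sense strand there, with 1 sample each and no test. On the minus strand, the medians below and above 19 kb were -1.12 and -1.94 in double deletion replicate 1, -0.95 and -1.53 in replicate 2, -0.53 and -0.80 in the paternal deletion and -0.29 and -0.38 in the maternal deletion. All 4 samples were below the wild-type mean for 305 of 350 probes (87.1%) below 19 kb and 328 of 422 (77.7%) above it. The 422 include 59 members near the upper border that were all above the wild-type mean in the paternal deletion. Over all 49275 tested probes, 63.3% were below that mean in the maternal deletion and 54.8% in the paternal deletion. In the double deletions 62.7% and 52.7% were. The share with all 4 samples on the same side was not counted over all probes.

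The question raised by the maternal deletion is whether removing the maternal Snrpn-Ube3a span alters antisense RNA that comes from the other chromosome. The maternal deletion read 0.57 against 0.85 and 0.93, a change of -0.32 on 1 sample. It lay below both wild types for 690 of 772 members (89.4%), where 50.8% of all probes did. The change ran from -0.23 to -0.39 over the 9 pieces, and from -0.78 to 0.15 over the 43 medians of 1 kb. The window below changed by -0.16 and the window above by -0.23, while the median over all probes of the array was -0.07. For the stretch, the direction was negative under every alternative tried.

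Adding the paternal promoter deletion to the maternal deletion is the comparison of the double with the maternal deletion. The maternal array helped to draw the upper border from its plus strand. Both double deletions lay below the maternal deletion, by 1.17 and 0.87, and their mean by 1.02 (SE 0.16). With the double deletions pooled as 1 group, limma gave an adjusted p of 0.484, and it called 0 of 86 windows and 0 probes, although 584 members had an unadjusted p under 0.05. When each double deletion was its own group, which leaves only the wild types to give a spread, the adjusted p was 0.0044 and 551 members were called, where 19.2% of all probes were, within a range of 0.00366 to 0.553 over all alternatives. Without double deletion replicate 1 the change was -0.87 (adjusted p 0.0161, 455 members called, with 16.7% of all probes) and without replicate 2 it was -1.17 (adjusted p 0.00366, 560 members called, with 22.3%). The change was -2.31 with background subtracted and -0.59 on the scale of all probes, neither of them called (adjusted p 0.553 and 0.407). In those fits the lone sample is assumed to vary like the other groups. Counted without a test, both double deletions lay below the maternal deletion for 721 of 772 members (93.4%), where 39.6% of all probes did. They lay below the paternal deletion for 698 members (90.4%), where 30.6% of all probes did.

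The paternal deletion removes the span between Snrpn and this stretch from the chromosome that makes the antisense RNA, and leaves the stretch itself in place. It read 0.32 on average, a change of -0.57 on the outside-locus scale, which turns to 0.68 when the scale is the 75th percentile of all probes and to 0.02 under quantile normalization. On the outside-locus scale it lay below both wild types for 670 of 772 members (86.8%), where 42.8% of all probes did. The change was not even. It was -0.52 to -0.84 in the first 8 pieces and 0.48 in the last.

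The turn was sharp. Between the members that start at 66523855 and 66523911, 2.99 kb before the upper border, the change of the paternal deletion moved from below to above 0 on the outside-locus scale. The 59 members after that point had a median change of 0.51, all 59 were above the wild-type mean and 57 above both wild types. The 59 members just before it had a median of -0.75, and 1 of them was above the wild-type mean. On the scale of all probes the same medians were 1.76 and 0.50. Median intensity of the 59 probes after the point was 588 in the paternal deletion and 364.5 and 390 in wild type. Before it, the values were 229 in the paternal deletion and 472.5 and 486 in wild type.

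No step of this size stood at that point in the other samples or on the other strand. The same 59 members changed by a median of -2.04 and -1.49 in the double deletions and by -0.31 in the maternal deletion, and the 59 before them by -2.13, -1.57 and -0.36. The plus-strand twins in the paternal deletion changed by 0.71 after the point and by 0.90 before it. The step of 1.26 in the paternal deletion is the same under any scaling factor, and it was 1.37 with no background correction, 1.71 with background subtracted and 1.65 under quantile normalization. The point was found in the values it describes, on 1 sample, so it is given with no test. Past the upper border, where the paternal chromosome lacks the sequence, the window above read -0.35 in the paternal deletion against 1.49 and 1.53 in wild type.

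**Figure D3:**
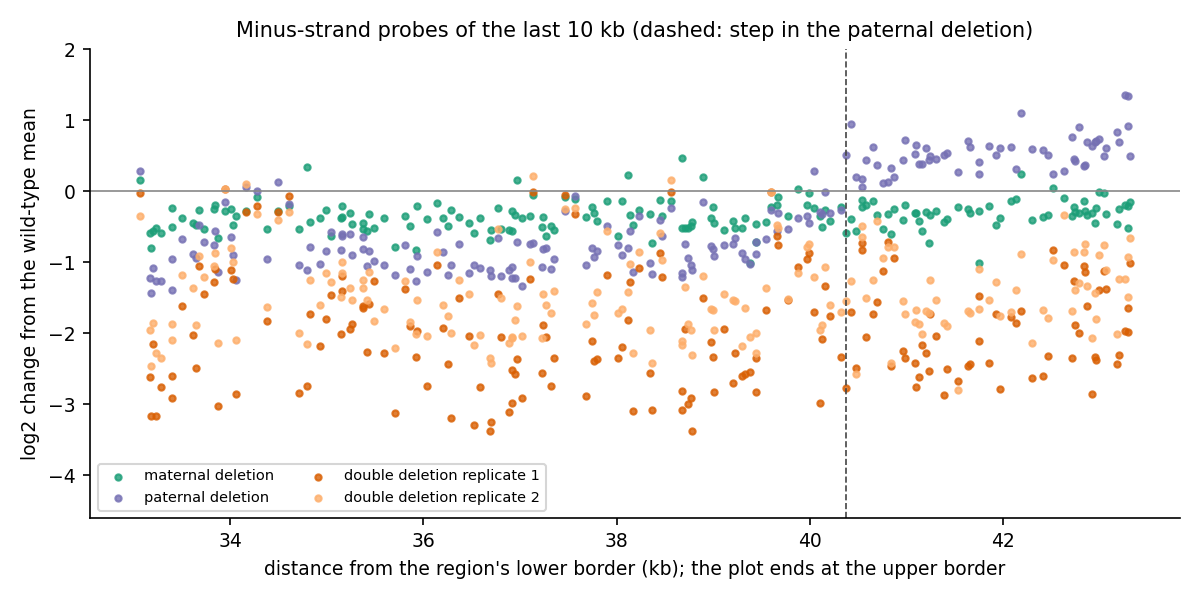
Log2 change from the wild-type mean of each minus-strand probe in the last 10 kb of the stretch, against the distance from its lower border in kb, for the 4 deletion samples. Points are probes and the dashed line marks the point between 66523855 and 66523911. On the outside-locus scale, right of it all 59 probes of the paternal deletion lie above 0, while both double deletions stay below it with medians of -2.04 and -1.49.

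At the upper border, the last members inside (starts 66526853, 66526827 and 66526825) changed by 0.49, 1.34 and 0.92 in the paternal deletion. The first probes outside (starts 66526901, 66526930 and 66526935) changed by -0.82, -1.06 and -1.69. In the double deletions the same probes changed by -0.83, -1.28 and -1.73 inside and by -0.51, -0.91 and -1.51 outside. At the lower border the first members inside (starts 66483532, 66483562 and 66483595) changed by -0.14, -1.17 and -0.17 in the double deletions, and the first probes outside (starts 66483499, 66483485 and 66483450) by -0.55, -1.33 and -1.21.

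A small set of very bright probes did not follow the others. The 23 members with a wild-type level of 4 or more had a median change of -0.09 in the double deletions, and none was called, where the 197 members at a level of 1 to 2 had a median of -2.03. The 85 members at a level of 2 to 4 lay between, with a median of -0.99 and 35 called lower, so the smaller change began below the level of 4. Of the 23, both double deletions were within 0.5 of the wild-type mean for 20, the paternal deletion for 21 and the maternal deletion for 20. They were not spread evenly, with 9 of them between 30 and 35 kb and 4 in the first 5 kb, and 21 were custom probes. Their plus-strand twins were bright too: 19 of the 23 twins had a wild-type level of 4 or more, against 18 of the other 749. Those 23 twins changed by a median of 0.05 in the double deletions.

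The brightest member, RC_CUST_5396_PI425394930 (chr7:66484035-66484094), read 8.44 and 8.31 in wild type, 7.98 in the maternal deletion, 8.32 in the paternal deletion and 8.22 and 8.05 in the double deletions. RC_CUST_5702_PI425394930 (chr7:66517695-66517754) read 7.02 and 7.03 in wild type and 6.73 and 7.13 in the double deletions. RC_CUST_5522_PI425394930 (chr7:66497895-66497954) read 7.12 and 6.55 in wild type and 7.09 and 7.01 in the double deletions. Over these 3 probes, the deletion sample farthest from the wild-type mean was the maternal deletion at the brightest, by -0.40. The twins of these 3 probes had wild-type levels of 5.69, 8.31 and 8.44. Whether these probes also bind other RNAs was not tested.

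The 3 members with the smallest change in the double deletions did not share a level. RC_A_67_P14808328 (chr7:66523127-66523186) changed by -0.01 from 4.00, with -0.01 and 0.00 in the separate samples. RC_A_67_P01526930 (chr7:66494539-66494598) changed by -0.02 from 1.32, with -0.19 and 0.15. RC_CUST_5414_PI425394930 (chr7:66486015-66486074) changed by 0.02 only as the mean of -1.09 in replicate 1 and 1.13 in replicate 2.

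**Figure D4:**
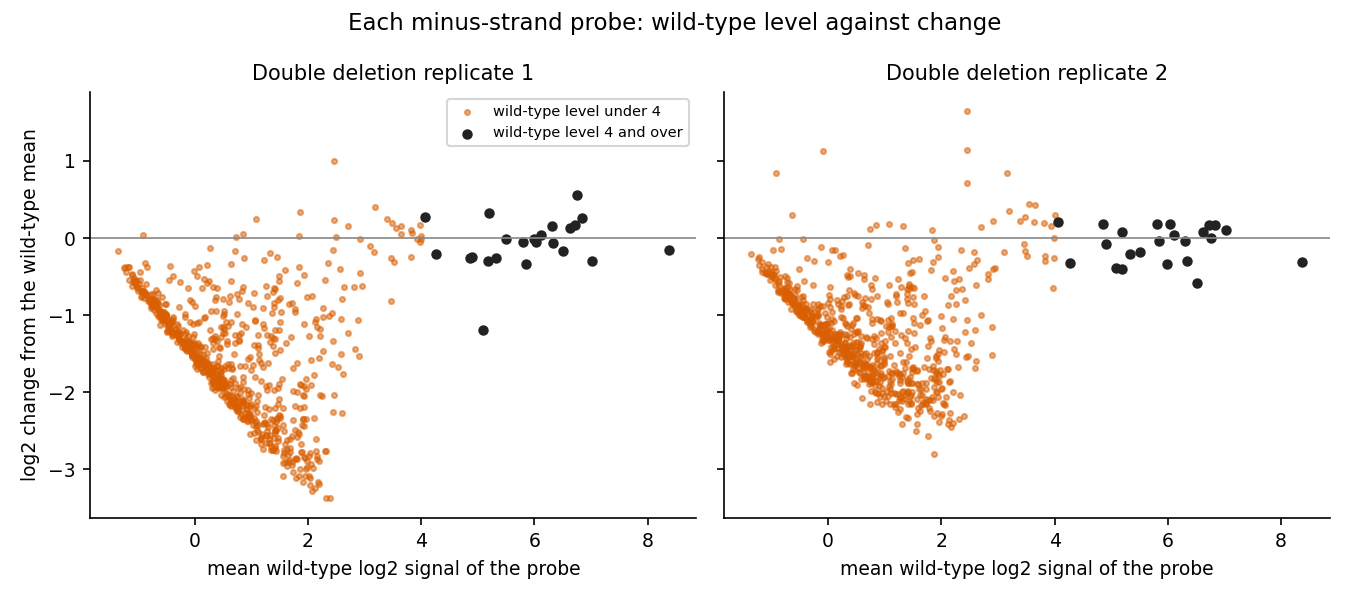
Log2 change from the wild-type mean of each of the 772 tested minus-strand probes, against its mean wild-type log2 signal, for both double deletions. Points are probes, and those at a wild-type level of 4 and over are black. Most probes fall further the brighter they are in wild type, along an edge where the double-deletion signal nears background, while the 23 black points stay near 0 with a median of -0.09.

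The polyA samples ask how much of the antisense RNA carries a polyA tail, relative to the probes that set the scale. The stretch read 0.64 and 0.54 in polyA RNA against 0.85 and 0.93 in total RNA of the same wild types, so both pairs were lower, by 0.21 and 0.39. In limma the change was -0.30 (SE 0.06, adjusted p 0.000165), where 59.3% of windows were called lower, and with the pair as a block the adjusted p was 0.0165. This direction belongs to the outside-locus scale: it was 1.04 on the scale of all probes and 0.09 under quantile normalization. Among the other settings, it was -0.01 on the median of outside probes well above background (adjusted p 0.869) and -0.15 with background subtracted (adjusted p 0.159), while the deposited value table gave -0.89 (adjusted p 8.67e-30). Over all alternatives the adjusted p ran from 3.08e-47 to 0.869. Without wild type replicate 1 the change was -0.34 (adjusted p 0.0504) and without wild type replicate 2 it was -0.26 (adjusted p 0.0874).

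Within an array, the antisense signal of the stretch was higher against the sense signal in polyA RNA than in total RNA. Over the probes of this comparison, the strand difference was 0.19 and 0.10 in polyA RNA and -0.15 and just below 0 in total RNA. The change was 0.22. Of 43 windows, 14% were called higher, and nothing is read from that here. The plus-strand signal of total RNA in these wild types placed the lower border, so this difference is described with no test. The change was 0.97 with background subtracted and 0.43 under quantile normalization. It was 0.15 without wild type replicate 1 and 0.18 without polyA replicate 1.

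Single members went both ways. By limma 374 of 772 (48.4%) were called lower in polyA RNA, where the background was 40.9%, and 130 (16.8%) were called higher, where the background was 32%. Both polyA samples lay below both total RNA samples for 477 members (61.8%), where 48.3% of all probes did, and above them for 189 (24.5%), where 39% did. Along the stretch 6 of 9 pieces were called lower, where 44% of all pieces were. The largest change was at 35 to 40 kb, where total RNA read 1.41 and 1.46 and polyA RNA 0.71 and 0.55, a change of -0.80 (adjusted p 0.00112). The piece just below it, from 30 to 35 kb, read 1.66 and 1.72 in total RNA and 1.92 and 1.67 in polyA RNA. Its change of 0.10 was not called (adjusted p 0.381).

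The 3 members with the highest polyA signal relative to total RNA lay within that piece, and each was among the bright or nearly bright probes. RC_CUST_5691_PI425394930 (chr7:66516485-66516544) read 3.60 and 4.03 in total RNA and 5.64 and 5.52 in polyA RNA, a change of 1.77 (SE 0.17, limma adjusted p 0.00125). RC_CUST_5705_PI425394930 (chr7:66518025-66518084) changed by 1.37 (SE 0.13, adjusted p 0.00113), and RC_CUST_5702_PI425394930 by 1.26 (SE 0.09, adjusted p 0.000655). In the double deletions these 3 probes changed by 0.15, -0.35 and -0.10. Their plus-strand twins had wild-type levels of 7.10, 8.03 and 8.31.

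The 3 members with the lowest polyA signal relative to total RNA lay in different pieces. RC_A_67_P01526913 (chr7:66487582-66487641) changed by -1.91 (SE 0.17, limma adjusted p 0.00107) and read 4.86 in wild-type total RNA. RC_A_67_P14808198 (chr7:66498135-66498194) changed by -1.80 (SE 0.10, adjusted p 0.000339). It read 2.11 and 1.98 in wild type, 2.38 in the maternal deletion, -0.21 in the paternal deletion and -1.15 and 0.56 in the double deletions, so the paternal deletion lay between the double deletions here. RC_CUST_5587_PI425394930 (chr7:66505045-66505104) changed by -1.74 (SE 0.08, adjusted p 0.000216) in polyA RNA and by -2.60 (SE 0.25, adjusted p 0.0355) in the double deletions.

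**Figure D5:**
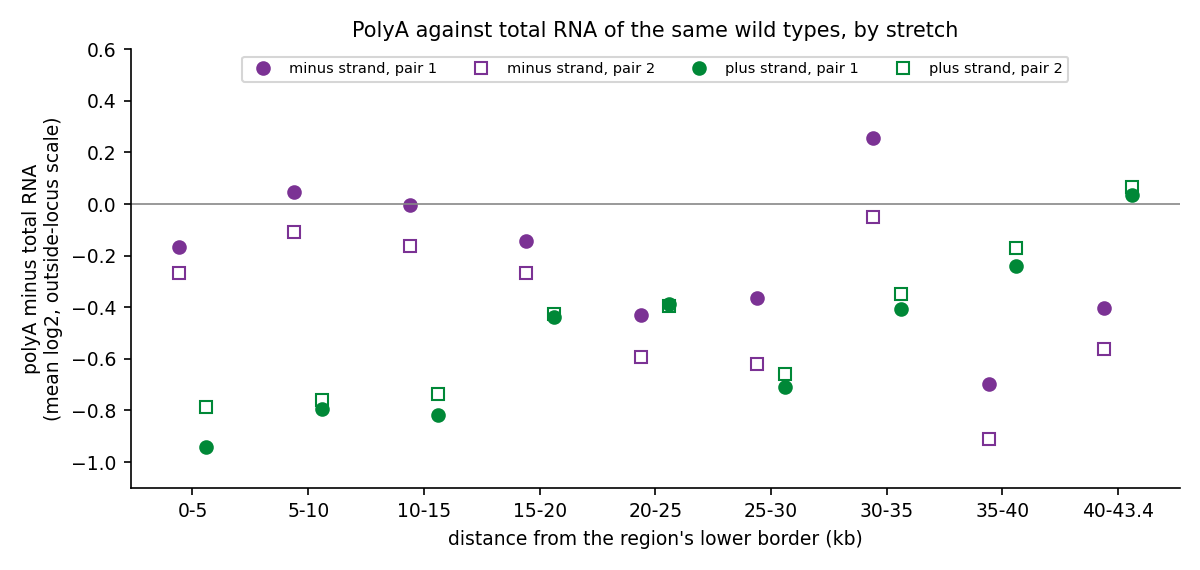
Mean log2 signal of polyA RNA minus that of total RNA from the same wild type, for the 9 pieces of the stretch ordered by distance from its lower border in kb. Filled circles are pair 1 and open squares pair 2, with the minus strand in purple and the plus strand in green, on the outside-locus scale (on the scale of all probes every value is higher by 1.34 in the mean of both pairs). The antisense signal is lowest at 35 to 40 kb in both pairs and highest at 30 to 35 kb.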

How the data were processed

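Labelled cDNA that keeps the strand was made from 15 µg of total RNA or from polyA RNA (750 ng), per the labels' protocols. The deposited values are linear red-channel spot intensity, not normalized between arrays. Agilent Feature Extraction 10.7.3.1 produced them per the file headers, whereas the submitters' processing notes name 10.9. The authors' deposited value table holds the same intensity times 1 factor per array for 377 members and served as an alternative. How its factors were chosen is not stated.

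Median red intensity was background-corrected (normexp, offset 50), put on the log2 scale and scaled to the outside-locus 75th percentile. Limma 3.58.1 under R 4.3.3 (two-sided, Benjamini-Hochberg, threshold 0.05) was fitted to 6 total RNA arrays in 4 groups that share 1 estimate of the spread, and to the 4 wild-type arrays for polyA RNA, at the level of probes, of windows of the stretch's length and of 5-kb pieces with at least 3 probes. Comparisons with wild type share the same wild-type samples. The fits were tested on simulated data with independent noise for each probe. That setting cannot show how the window p-values behave when the probes of an array vary together. The labels pair each polyA sample with the wild type of the same number, and deviations from the group means of these pairs correlated at 0.19 over 43784 probes. The number of arrays limits the precision.

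The stretch, the members and the rule for named probes were chosen with earlier results of these data known. The rule took, among tested members, the 3 brightest in wild type, the 3 with the largest decrease and the 3 with the smallest change in the double deletions, and the 3 highest and 3 lowest in polyA against total RNA. Lists of cell type markers could not be applied. Tests of the strand difference had been planned for double deletions against wild type and for polyA against total RNA. They are not used, because plus-strand signal chose the stretch. Alternatives covered background correction, scale, probe filter, borders, pooling of the double deletions, the block and leaving out each replicate.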

Additional observations from a re-analysis of the deposited data

How the results depend on the processing

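Another scale moved every change: the 75th percentile of all probes added 0.03 to the maternal, 1.25 to the paternal and 0.47 to the double deletion and 1.34 to polyA RNA. That scale draws on 53834 distinct probes, 50496 of them in the tiled locus. On it the double deletions changed by -0.87 (adjusted p 0.0656, 304 members called, with 21.3% of all probes), the paternal deletion by 0.68 and polyA RNA by 1.04, and 50 members were called for double against maternal deletion, with 8.55% of all probes. Quantile normalization gave 0.0209 for the paternal deletion, 0.0877 and 268 members for polyA RNA, and 0 members in the double deletions (667 at an unadjusted p under 0.05). A filter to probes above background on every array also gave 0 (500 unadjusted). Background subtraction gave -0.51 for the maternal and -0.97 for the paternal deletion, and -0.15 and 238 members for polyA RNA. The scale on outside probes well above background gave -0.0131 for polyA RNA. The paternal change was -0.66 with no background correction, -0.68 with both borders moved 5 kb inwards, -0.75 as a median over probes (chosen after seeing the data) and -0.79 in the deposited value table. That table gave -0.41 for the maternal deletion, -0.89 for polyA RNA and 0.21 for the polyA strand difference. It holds no probe outside the locus, so it kept the authors' factors and could not be scaled like the rest.

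Separate double-deletion samples gave -1.02 (adjusted p 0.0044, 551 members) for double against maternal deletion. A fit of all 8 samples gave 40 members there, and for polyA RNA -0.30 (adjusted p 0.095) and a strand difference of 0.22. The replicate block kept the polyA strand difference at 0.22, and the polyA window stayed called lower.

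With 1 replicate left out, the double deletions changed by -1.49 to -1.19 (0 to 687 members called), by -2.25 to -2.10 in the strand difference and by -0.97 to -0.76 against the window below. Double against maternal deletion ran from -1.17 to -0.87 (455 to 560 members), the maternal deletion from -0.36 to -0.28 and the paternal from -0.61 to -0.53. PolyA RNA ran from -0.35 to -0.25 (392 to 437 members) and its strand difference from 0.15 to 0.30. Signal near background limits the double deletions, where 589 of 777 members were well above it on both arrays, and the polyA arrays, where 596 were.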
